A study of Mus musculus with 98 samples.

Results

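The genes described here are the 9 core genes of vascular endothelial growth factor (VEGF) and angiopoietin signalling, chosen by name: the ligand genes Vegfa, Vegfc, Angpt1 and Angpt2 and the receptor genes Kdr, Flt1, Flt4, Tek and Tie1. All 9 were present in each of the 3 count tables of the study, among 22231 genes in single cells of the age series, 20760 genes in single cells of newborn mice and 39179 genes in bulk RNA of sorted populations. The question asked of them was which stromal cells of the mouse thymus held transcripts of the ligands, which held the receptors, and how both moved with age and with genotype.

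The age series held 8 libraries of live Ter119-CD45-EpCAM- cells from wild-type (WT) mice, with 1 library at E12.5, 1 at E13.5, and pairs of libraries at E16.5, at birth (P0) and at 4 weeks (W4). The newborn data held 3 libraries labelled Tbx1+/-Crkl+/- and 3 labelled WT, all at P0, from Ter119-CD45- cells that had been fixed with RNA Protect before capture, so that they also hold thymic epithelial cells (TEC). The Tbx1+/-Crkl+/- mice were heterozygous for a loss of both Tbx1 and Crkl. The bulk data held 84 libraries of WT mice, 6 for each of 14 groups: CD31+ endothelial cells, Ly51+gp38- cells, gp38+CD26+ cells, gp38+CD26- cells, cortical TEC (cTEC) and medullary TEC (mTEC), each at P0 and at W4, and the mTEChi and mTEClo cells at W4. By the study's methods the Tbx1 allele was Tbx1LacZ, the newborn groups were 3 mice each and the WT mice were littermates, and the age series used pooled thymi of 2 litters at E12.5 and E13.5 and cells of 2 thymi at each later age. The labels do not tie single libraries to animals, so p-values measure the spread between libraries, part of which may be technical.

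VEGF-A binds the receptor tyrosine kinases VEGFR2 (encoded by Kdr), which carries most of the growth signal in blood endothelium, and VEGFR1 (Flt1), which binds the ligand tightly and signals weakly. VEGF-C binds VEGFR3 (Flt4), the receptor that lymphatic vessels need. Angiopoietin-1, made by cells around vessels, activates TIE2 (Tek) and stabilises the vessel wall, whereas angiopoietin-2 can oppose it, and TIE1 (Tie1) is a related receptor that forms complexes with TIE2.

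The promoters of Kdr, Tek and Tie1 are shown because these receptor genes departed from each other outside the endothelium: Tek was also present in a capsular fibroblast subtype and Kdr in mesothelium, while Tie1 was near 0 in both. The sequences are the 250 bases before the RefSeq start of each gene in GRCm38.p6, written 5′ to 3′ on the strand of the gene, and capitals mark GGAA or its reverse complement TTCC, the core letters bound by ETS factors, which are widely used in endothelial genes. They lie at chr5:75978456-75978705 on the minus strand for Kdr, chr4:94739039-94739288 on the plus strand for Tek and chr4:118489850-118490099 on the minus strand for Tie1.
Kdr: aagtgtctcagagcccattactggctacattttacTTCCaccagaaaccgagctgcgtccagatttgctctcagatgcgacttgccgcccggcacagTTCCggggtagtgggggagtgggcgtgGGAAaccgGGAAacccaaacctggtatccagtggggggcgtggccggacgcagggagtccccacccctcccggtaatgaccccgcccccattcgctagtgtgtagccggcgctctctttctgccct
Tek: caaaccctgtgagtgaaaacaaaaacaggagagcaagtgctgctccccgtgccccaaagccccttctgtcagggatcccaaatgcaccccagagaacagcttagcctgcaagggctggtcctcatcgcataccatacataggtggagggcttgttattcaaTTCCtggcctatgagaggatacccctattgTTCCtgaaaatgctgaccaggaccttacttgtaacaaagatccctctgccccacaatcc
Tie1: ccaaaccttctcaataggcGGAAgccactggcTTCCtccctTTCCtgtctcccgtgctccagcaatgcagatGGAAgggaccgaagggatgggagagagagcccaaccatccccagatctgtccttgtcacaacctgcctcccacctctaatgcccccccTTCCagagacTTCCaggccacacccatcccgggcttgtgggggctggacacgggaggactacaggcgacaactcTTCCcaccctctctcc
The Tie1 window held 7 matches, the Kdr window 4 and the Tek window 2. The windows are not alike: GENCODE places Tie1 at chr4:118471191-118490061, so by that annotation most of its window lies inside the gene. The Kdr and Tek windows lie almost wholly outside theirs. Of 32851 promoter windows of the same length, 3.82% held at least 7 matches, 33.4% at least 4 and 76.8% at least 2. These are counts of letters and say nothing about binding.

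Of the 9 genes, Vegfa lies on chromosome 17, Vegfc and Angpt2 on chromosome 8, Angpt1 on chromosome 15, Kdr and Flt1 on chromosome 5, Flt4 on chromosome 11, and Tek and Tie1 on chromosome 4 (GRCm38). Angpt2 lies opposite Mcph1, a protein-coding gene on the other strand, and Angpt1 opposite the antisense transcript Gm17473, so reads of these pairs may be mixed where counting did not use the strand.

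Levels in single cells are UMIs of a gene per 1000000 UMIs (CPM) summed over the cells of a subtype in a library, given for libraries with at least 5 such cells. Libraries of the age series held 28583048 to 93040640 UMIs and those of the newborn data 4978011 to 31418527. Bulk libraries held 5785352 to 15852166 gene counts, apart from 1 gp38+CD26+ library at W4 (replicate 2) with 25702 counts, which was left out of every bulk value given here. No pair of single-cell libraries shared more than 0.275% of the cell barcodes of the smaller one. The 5 endothelial markers (Pecam1, Cdh5, Cldn5, Emcn, Egfl7) summed to between 3107 and 5813 CPM in the endothelial subtypes EnA (arterial), EnC (capillary) and EnVL (venous and lymphatic), and to at most 184.2 CPM in every other subtype except the neural crest cells (NC), where 1 small library reached 1118 CPM. The single-cell subtypes were clustered by the authors on these counts, so levels are compared between subtypes as a description, without a test. A lack of overlap between groups of 2 or 3 libraries can arise by chance, and the share of all genes that separate likewise is not given.

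**Figure D1:**
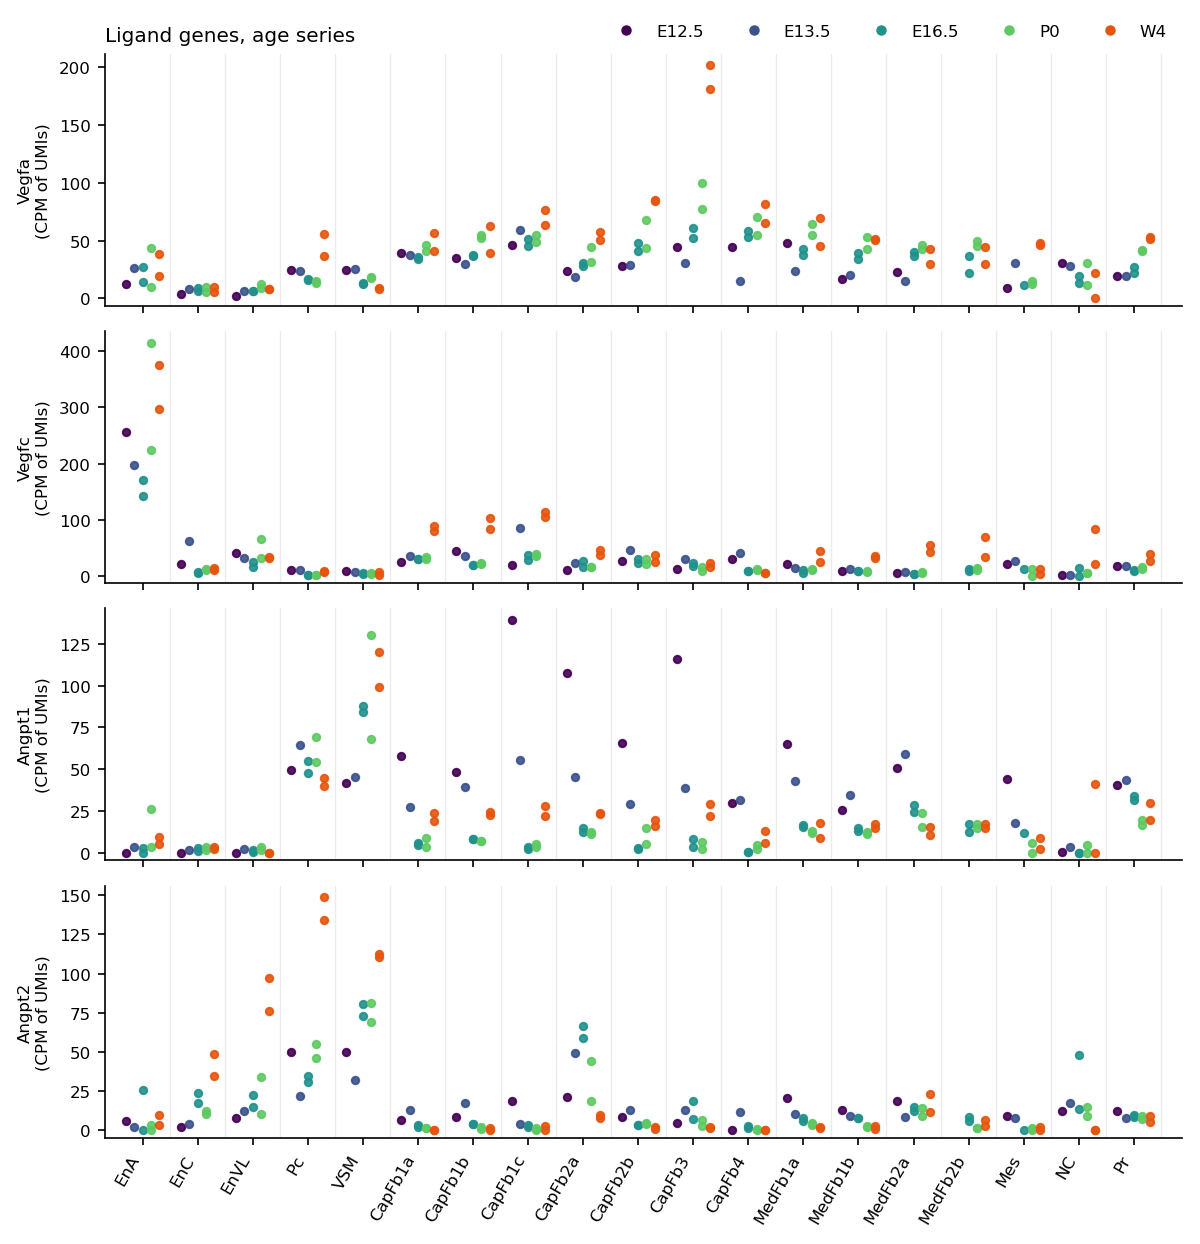
Levels of the 4 ligand genes (y axis, CPM of UMIs, linear) in the 19 subtypes of the age series (x axis), with 1 point per library coloured by age. Vegfa is highest in CapFb3 at W4 (181 and 201 CPM) and Vegfc in EnA (141 to 416 CPM). By their means over libraries Angpt1 and Angpt2 are highest in the mural cells VSM and Pc. At E12.5, however, Angpt1 stands above VSM in CapFb1a, CapFb1b, CapFb1c (139.2 CPM from 10 cells), CapFb2a, CapFb2b, CapFb3, MedFb1a and Mes. At E16.5 both points of Angpt2 in CapFb2a stand above those of Pc.

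In the age series, which lacks epithelium, Vegfa was highest in fibroblasts of the capsule and lowest in the endothelial subtypes EnC and EnVL, which hold its receptors. Vegfa encodes the main growth factor of blood vessels. The highest level was that of CapFb3, a capsular fibroblast subtype, with 44.7 CPM at E12.5, 30.4 at E13.5, 60.9 and 52.4 at E16.5, 77.6 and 99.8 at P0, and 181 and 201 CPM at W4. Both libraries at W4 lay above all 6 earlier ones, and above the next subtype at that age, CapFb2b with 85.3 and 83.8 CPM. Over all ages, however, the range of CapFb3 overlapped those of CapFb1c (45.01 to 76.4 CPM), CapFb4 (15.1 to 81.4 CPM) and CapFb2b (27.9 to 85.3 CPM). The share of CapFb3 cells with a Vegfa UMI was 54.01 and 68.3% at P0 and 72.2 and 82.03% at W4. After each cell was thinned to 2000 UMIs, the shares were 9.85 and 11.2% at P0 and 22.8 and 33.6% at W4. EnC, at the other end of the order, held 3.93 to 10.1 CPM and EnVL 2.04 to 12.1 CPM.

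From P0 to W4, Vegfa rose in pooled capsular fibroblasts (49.4 and 59.2 to 83.3 and 86.4 CPM, log2 fold change 0.72, SE 0.10, edgeR quasi-likelihood test, adjusted p = 0.000881). CapFb3 made up 13.9 and 8.45% of these cells at P0 and 11.4 and 17.98% at W4, and without it the pool held 45.5 and 55.3 CPM of Vegfa at P0 and 70.8 and 61.3 CPM at W4. In pericytes (Pc), the cells wrapped around capillaries, it rose from 13.0 and 15.0 to 55.8 and 36.9 CPM (1.53, SE 0.19, adjusted p = 9.18e-05). In vascular smooth muscle cells (VSM) it fell from 18.2 and 17.2 to 8.97 and 7.70 CPM (-1.15, SE 0.21, adjusted p = 0.00663). The libraries of the 2 ages did not overlap in any of these 3 units, and the difference between Pc and VSM was not tested. The call in VSM was lost after thinning (adjusted p = 0.336), with DESeq2 (0.184) and without W4 replicate 2 (0.0536). In medullary fibroblasts the values were 52.8 and 45.03 at P0 and 48.4 and 41.0 CPM at W4 (-0.14, SE 0.09, adjusted p = 0.218).

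Vegfc, the ligand of the lymphatic receptor, was highest in EnA at every age. EnA held 256 CPM at E12.5, 197 at E13.5, 171 and 141 at E16.5, 225 and 416 at P0, and 297 and 376 CPM at W4. No other subtype reached 141 CPM in any library, and the next in order were the CapFb1 fibroblasts, of which CapFb1c held 18.6 to 114 CPM, CapFb1a 24.3 to 88.5 CPM and CapFb1b 18.9 to 102.6 CPM. The value of EnA at E12.5 came from 10 cells. EnA gave no call from P0 to W4 (log2 fold change -0.04, SE 0.26, adjusted p = 0.95).

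Vegfc rose between birth and 4 weeks in the fibroblasts of both compartments. In pooled capsular fibroblasts it rose from 21.4 and 22.98 to 56.4 and 51.1 CPM (1.34, SE 0.09, adjusted p = 3.33e-05), and in pooled medullary fibroblasts from 8.43 and 7.46 to 40.8 and 41.1 CPM (2.36, SE 0.12, adjusted p = 7.61e-08). In the medullary subtype MedFb2a the level was 7.10 and 4.19 CPM at P0 and 53.9 and 41.9 CPM at W4. The share of its cells with a Vegfc UMI was 6.62 and 3.84% at P0 and 40.7 and 36.8% at W4, and after thinning 0.317 and 0.57%, then 7.66 and 6.81%. Pc also rose, from 1.39 and 2.05 to 7.18 and 7.60 CPM (1.83, SE 0.42, adjusted p = 0.00587, and 0.0545 with DESeq2). Ccbe1, which encodes a cofactor for the maturation of VEGF-C, rose with it in capsular (0.64) and medullary fibroblasts (1.74, log2 fold changes that passed the test), whereas Adamts3, the protease of that step, fell in Pc (-2.36).

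Angpt1, the ligand that activates TIE2, was high in mural cells at all ages and in fibroblasts at the earliest ages. VSM held 41.6 CPM at E12.5, 45.3 at E13.5, 84.3 and 87.7 at E16.5, 68.1 and 130 at P0, and 120 and 99.3 CPM at W4. Pc held 40.1 to 69.2 CPM in all 8 libraries, a range that overlapped that of VSM. In capsular fibroblasts the level was 73.9 CPM at E12.5 and 32.6 at E13.5, only 5.34 to 8.84 CPM in the 4 libraries at E16.5 and P0, and 21.1 and 19.8 CPM at W4.

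The early level of Angpt1 was highest in CapFb3 with 116 CPM and CapFb2a with 107.3 CPM at E12.5, apart from CapFb1c, whose 139.2 CPM came from 10 cells. CapFb2b (65.9 CPM), MedFb1a (64.9), CapFb1a (58.1), CapFb1b (48.5) and Mes (44.2) also stood above VSM (41.6) at that age. At E13.5 the medullary subtype MedFb2a (59.3 CPM) stood above VSM too. The rise of capsular fibroblasts from P0 to W4 was 1.55 on the log2 scale (SE 0.17, adjusted p = 0.000351). Pc moved the other way, from 54.4 and 69.2 to 40.1 and 45.03 CPM (-0.76, SE 0.15, adjusted p = 0.00275), and this call was lost without W4 replicate 1 (0.0695). VSM (0.08, SE 0.26, adjusted p = 0.849) and medullary fibroblasts (-0.11, SE 0.14, adjusted p = 0.548) gave no call, although VSM passed without P0 replicate 2 (0.60, adjusted p = 0.00749).

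Angpt2, whose product competes with angiopoietin-1 for TIE2, rose after birth in pericytes, smooth muscle, EnC and EnVL and fell in capsular fibroblasts. In Pc the values were 46.3 and 55.3 CPM at P0 and 148.7 and 134.5 CPM at W4 (log2 fold change 1.27, SE 0.11, adjusted p = 5.95e-06), where no earlier library exceeded 55.3 CPM. In EnVL they were 10.7 and 34.1 at P0 and 97.4 and 76.0 CPM at W4 (1.98, SE 0.38, adjusted p = 0.00521), with 8.73 and 31.4 and then 98.4 and 76.4 CPM of Angpt2 in the EnVL cells without a UMI of Prox1, a lymphatic gene, and in EnC 12.4 and 10.7 at P0 and 48.6 and 35.0 CPM at W4 (1.80, SE 0.28, adjusted p = 0.00254). After thinning to 2000 UMIs per cell, EnC no longer passed (adjusted p = 0.139), and EnVL did not pass without W4 replicate 1 (0.0749).

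VSM rose from 69.2 and 81.05 to 111 and 112.2 CPM (0.51, SE 0.12, adjusted p = 0.0188). The call in VSM was lost with DESeq2 (0.177) and without either W4 replicate or either E16.5 replicate. EnA held few Angpt2 UMIs, with 0 and 3.27 CPM at P0 and 3.64 and 9.58 CPM at W4 (1.67, SE 2.10, adjusted p = 0.692). Among capsular subtypes the level of Angpt2 was highest in CapFb2a at every age, with 21.05 CPM at E12.5, 49.4 at E13.5, 66.5 and 59.1 at E16.5, 18.5 and 43.98 at P0, and 8.00 and 9.84 CPM at W4. At E16.5 both CapFb2a libraries lay above those of Pc. Pooled capsular fibroblasts fell from 5.45 and 6.58 to 1.46 and 1.66 CPM (-1.85, SE 0.19, adjusted p = 0.000243). CapFb2a made up 15.7 and 10.2% of these cells at P0 and 5.47 and 6.79% at W4. Without CapFb2a the pool kept 7.11 of 9.66 CPM of Angpt2 at E12.5 and 13.3 of 15.9 CPM at E13.5, and it held 2.48 and 1.903 CPM at P0 and 1.06 and 1.04 CPM at W4.

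**Figure D2:**
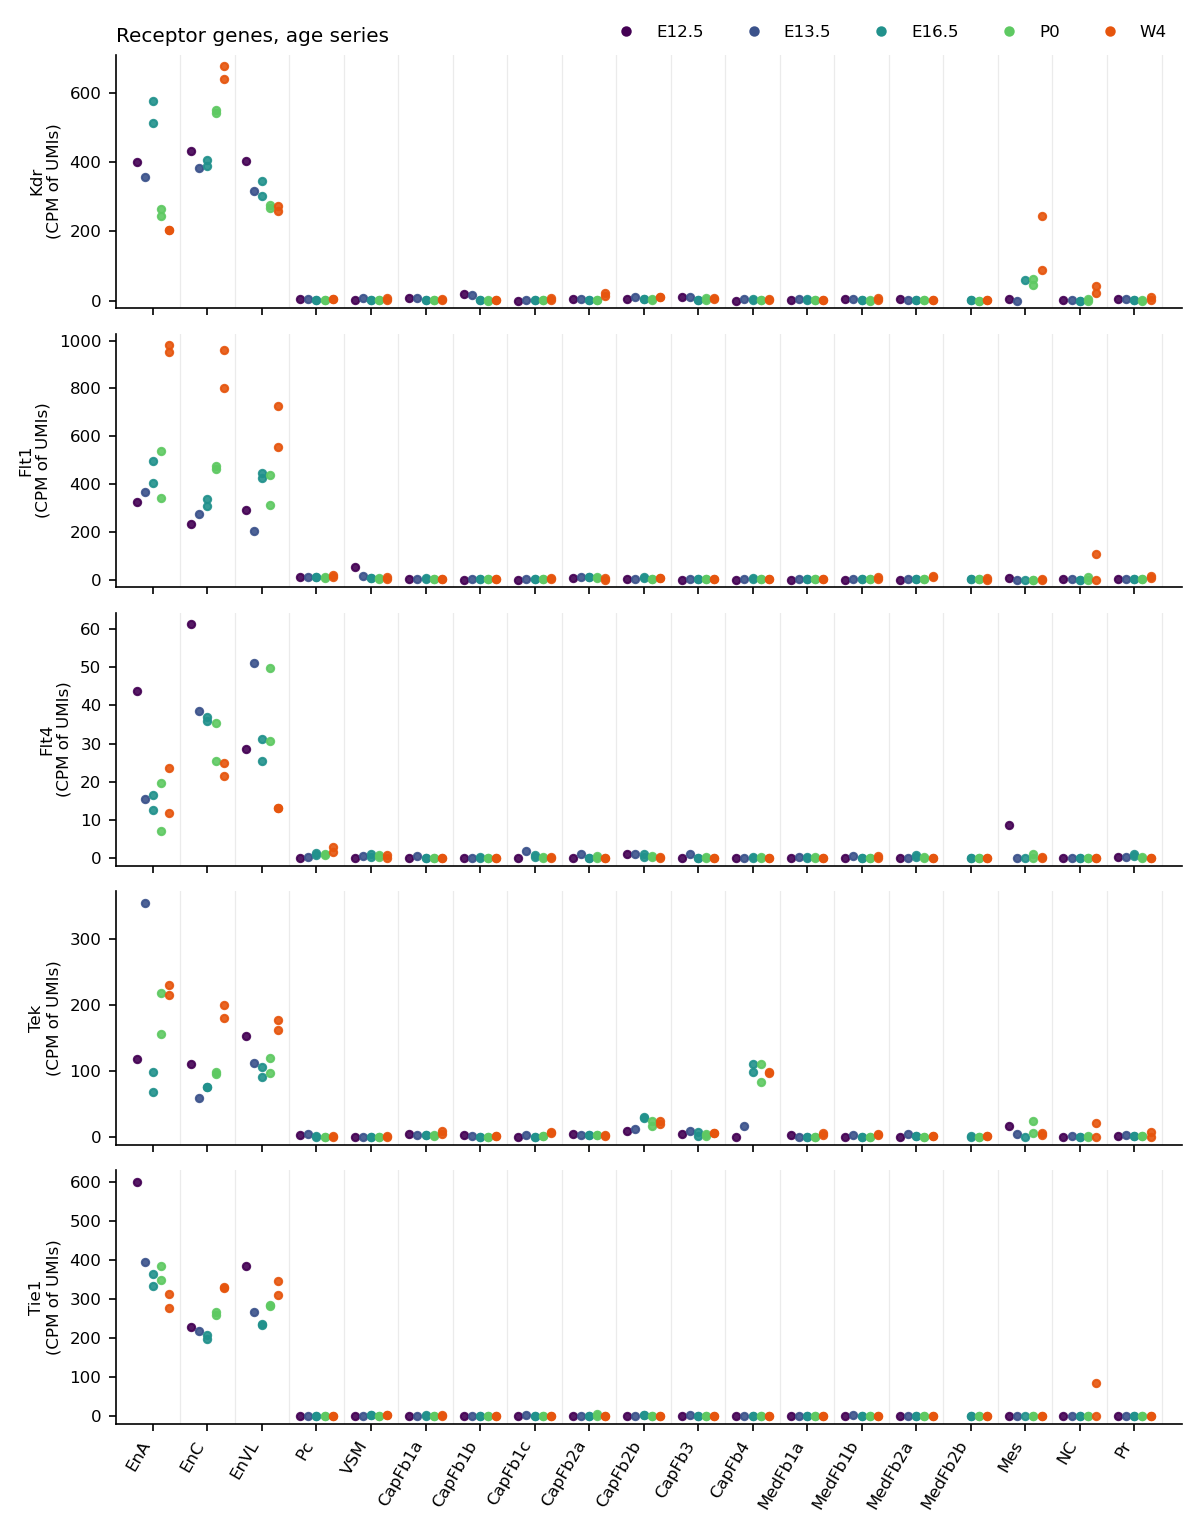
Levels of the 5 receptor genes (y axis, CPM of UMIs, linear) in the 19 subtypes of the age series (x axis), with 1 point per library coloured by age. By their means over libraries EnA, EnC and EnVL are the 3 highest subtypes for all 5 genes, but points of other subtypes overlap theirs for Tek in CapFb4 (84.5 to 111 CPM from E16.5) and for Kdr in 1 of the 2 Mes libraries at W4 (243 CPM, from 32 cells), which lies above the lowest points of EnA and below all of EnVL and EnC. For Flt4 the highest Mes point (8.83 CPM) lies above the lowest of EnA (7.25 CPM).

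Kdr, the main VEGF-A receptor, was highest in capillary cells at P0 and W4, while at E16.5 both EnA libraries lay above both EnC libraries. EnC held 433 CPM at E12.5, 384 at E13.5, 405 and 389 at E16.5, 542 and 551 at P0, and 676 and 639 CPM at W4. The 4 libraries at P0 and W4 lay above the 4 earlier ones, and the step from P0 to W4 alone did not pass the test (0.21, SE 0.09, adjusted p = 0.122). From E16.5 on EnA took the opposite course, with 576 and 511 CPM at E16.5, 243 and 265 at P0, and 204 CPM in both libraries at W4. Its E12.5 and E13.5 libraries lay below both at E16.5, and its step from P0 to W4 did not pass either (-0.42, SE 0.19, adjusted p = 0.198). EnVL held 258 to 402 CPM, and its range overlapped that of EnA. At W4 the order EnC, EnVL, EnA had no overlap between neighbours. A test over all 5 ages passed in EnC for Kdr (adjusted p = 0.00206) and Tie1 (0.00672). In EnA the test passed for Kdr (adjusted p = 1.17e-05) over the ages from E13.5 on, since its 10 cells at E12.5 were too few for the fit.

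Mesothelial cells (Mes), the outer lining of the organ, held the most Kdr outside the endothelium by the mean over libraries, but not at E12.5 and E13.5, where CapFb1b held 19.05 and 15.1 CPM. The level of Mes was 5.89 CPM at E12.5 and 0 at E13.5, 58.4 CPM in the 1 library at E16.5 with enough cells, 46.1 and 63.2 CPM at P0, and 243 and 88.1 CPM at W4. It rose from P0 to W4 by 1.70 on the log2 scale (SE 0.29, adjusted p = 2.47e-07). The fit had 1 library at P0 with at least 20 cells, which is assumed to vary like the 2 at W4, which held 32 and 157 cells. The call was lost with no filter on low counts (adjusted p = 0.315), after thinning (0.0756) and with DESeq2 (0.572). Vegfa also rose in Mes, from 14.7 and 12.6 to 46.1 and 48.0 CPM (1.70, adjusted p = 2.56e-05, and 0.0907 with no filter).

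Flt1, Flt4, Tek and Tie1 were too low in Mes to be tested, with Flt1 at 0 in both P0 libraries and at 0 and 0.4659 CPM at W4. Of 481 Mes cells pooled over all libraries, 228 came from 1 P0 library and 157 from 1 W4 library, and 308 held no Kdr UMI. Pecam1, Cdh5 or Tie1 was found in 10.98% of the cells with a Kdr UMI (95% exact binomial interval 6.74 to 16.6) and in 8.12% of the others (5.32 to 11.7). The mesothelial marker Upk3b was found in 99.4% of the cells with a Kdr UMI and in 97.4% of the others.

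Flt1, the decoy-like VEGF-A receptor, rose in all 3 endothelial subtypes between birth and 4 weeks. EnA moved from 341 and 537 to 981 and 953 CPM (log2 fold change 1.03, SE 0.21, adjusted p = 0.00512), EnC from 463 and 474 to 960 and 800 CPM (0.85, SE 0.11, adjusted p = 0.000865) and EnVL from 314 and 438 to 726 and 555 CPM (0.73, SE 0.19, adjusted p = 0.0234). Lymphatic cells made up less of EnVL at W4 than at P0, and in EnVL cells without a UMI of the lymphatic gene Prox1 Flt1 stood at 378 and 407 CPM at P0 and 723 and 554 CPM at W4. No library at W4 overlapped those of any earlier age in the same subtype. The calls in EnA (adjusted p = 0.0692) and EnVL (0.153) were lost without P0 replicate 1, and that in EnVL also without W4 replicate 1 (0.175).

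Flt4, the VEGF-C receptor, fell in EnVL from 49.7 and 30.8 CPM at P0 to 13.1 and 13.3 CPM at W4 (-1.67, SE 0.32, adjusted p = 0.00514). Lymphatic cells of that subtype were also fewer at W4. Cells with a UMI of Prox1, the transcription factor that defines lymphatic endothelium, made up 27.4 and 28.9% of EnVL at P0 and 1 and 1.03% at W4. The lymphatic markers Prox1, Lyve1, Ccl21a and Reln summed to 1428 and 844 CPM at P0 and 8.43 and 7.24 CPM at W4. Mmrn1, also listed as lymphatic, was not in the age series and entered the sums in bulk. In EnVL cells without a Prox1 UMI, Flt4 stood at 16.2 and 19.8 CPM at P0 and 13.2 and 13.3 CPM at W4. Over all ages Flt4 was found in 44.8% of the 105 EnVL cells with Prox1 and in 23.5% of the 733 without. The part of lymphatic cells in the lower Flt4 level was not tested. The call was lost after thinning (adjusted p = 0.124), with DESeq2 (0.074), without P0 replicate 1 (0.0537) and without W4 replicate 1 (0.0607).

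Flt4 was not restricted to lymphatic cells. EnC held 61.2 CPM at E12.5, 35.4 to 38.5 CPM in 4 of the other libraries, 25.4 at P0 replicate 1, and 24.9 and 21.5 CPM at W4 (P0 to W4, -0.46, SE 0.22, adjusted p = 0.177), although lymphatic markers summed to at most 33.9 CPM there. Prox1 was found in 4.04% of the 767 EnC cells with a Flt4 UMI and in 2.38% of the 1599 without, whose median depths were 15232 and 9834 UMIs per cell. EnA held 7.25 to 43.7 CPM of Flt4, and no subtype outside the endothelium exceeded 8.83 CPM.

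Tek, the angiopoietin receptor, was present in the endothelium and in CapFb4, a fibroblast of the capsule, which overlapped EnC at P0 and lay below it at W4. In EnC it rose from 96.4 and 99.4 CPM at P0 to 200 and 181 CPM at W4 (log2 fold change 0.90, SE 0.11, adjusted p = 0.000775) and in EnVL from 97.7 and 121 to 162.97 and 177 CPM (0.60, SE 0.17, adjusted p = 0.0349). EnVL is the subtype whose lymphatic cells were fewer at W4, and in its cells without a Prox1 UMI Tek stood at 93.5 and 85.99 CPM at P0 and 164.6 and 178.3 CPM at W4. The call in EnVL was lost with DESeq2 (0.314) and without E16.5 replicate 1 or 2, P0 replicate 1, or W4 replicate 1 or 2 (0.0527 to 0.227). EnA held 155.9 and 219 CPM at P0 and 231 and 216 CPM at W4 (0.15, SE 0.23, adjusted p = 0.763).

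CapFb4 held no Tek UMI in 6 cells at E12.5 and 16.8 CPM at E13.5. It then held 111 and 98.3 CPM at E16.5, 110 and 84.5 CPM at P0, and 97.3 and 99.0 CPM at W4, without overlap with the earlier libraries. At P0 the range of CapFb4 covered that of EnC, and at W4 both EnC libraries were higher. The share of CapFb4 cells with a Tek UMI was 73.4 to 80.8% in the 6 libraries from E16.5 on (13.0 to 22.4% after thinning), against 1.46 to 9.66% in CapFb1a. Of the 637 CapFb4 cells with a Tek UMI, 10.8% held Pecam1, Cdh5 or Tie1 (95% exact binomial interval 8.53 to 13.51), compared with 14.05% (9.93 to 19.1) of the 242 without and 99.9% of the 1413 EnC cells with Tek. The fibroblast marker Pdgfra was found in 82.1 and 78.9% of the CapFb4 cells with and without Tek. CapFb2b, another capsular subtype, held 10.1 to 30.3 CPM of Tek. In pooled capsular fibroblasts Tek rose from 14.6 and 9.19 to 23.6 and 20.8 CPM (log2 fold change 0.97). CapFb4 made up 6.84 and 5.77% of these cells at P0 and 12.8 and 11.8% at W4. With CapFb4 left out, which like the other pools without 1 subtype was computed after these values were seen, the pool held 5.24 and 3.18 CPM of Tek at P0 and 10.7 and 8.83 CPM at W4, which also did not overlap. In medullary fibroblasts Tek rose from 0.937 and 0.946 to 3.21 and 3.22 CPM (1.74).

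The partner receptor Tie1 did not follow Tek outside the endothelium. EnA held 277 to 600 CPM, EnVL 234 to 386 CPM and EnC 198 to 332 CPM, ranges that overlapped, while CapFb4 held 0.497 and 1.99 CPM at P0. Outside the endothelium Tie1 was at most 5.62 CPM in every library of every subtype (CapFb2a at P0, from 4 of 194 cells) except 1 NC library at W4 with 7 cells, which held 86.01 CPM of Tie1, 107.5 CPM of Flt1 and 1118 CPM of endothelial markers. Tie1 and Kdr were the receptors with no call from P0 to W4 in any endothelial subtype (Tie1 in EnC 0.27, SE 0.09, adjusted p = 0.0694).

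**Figure D3:**
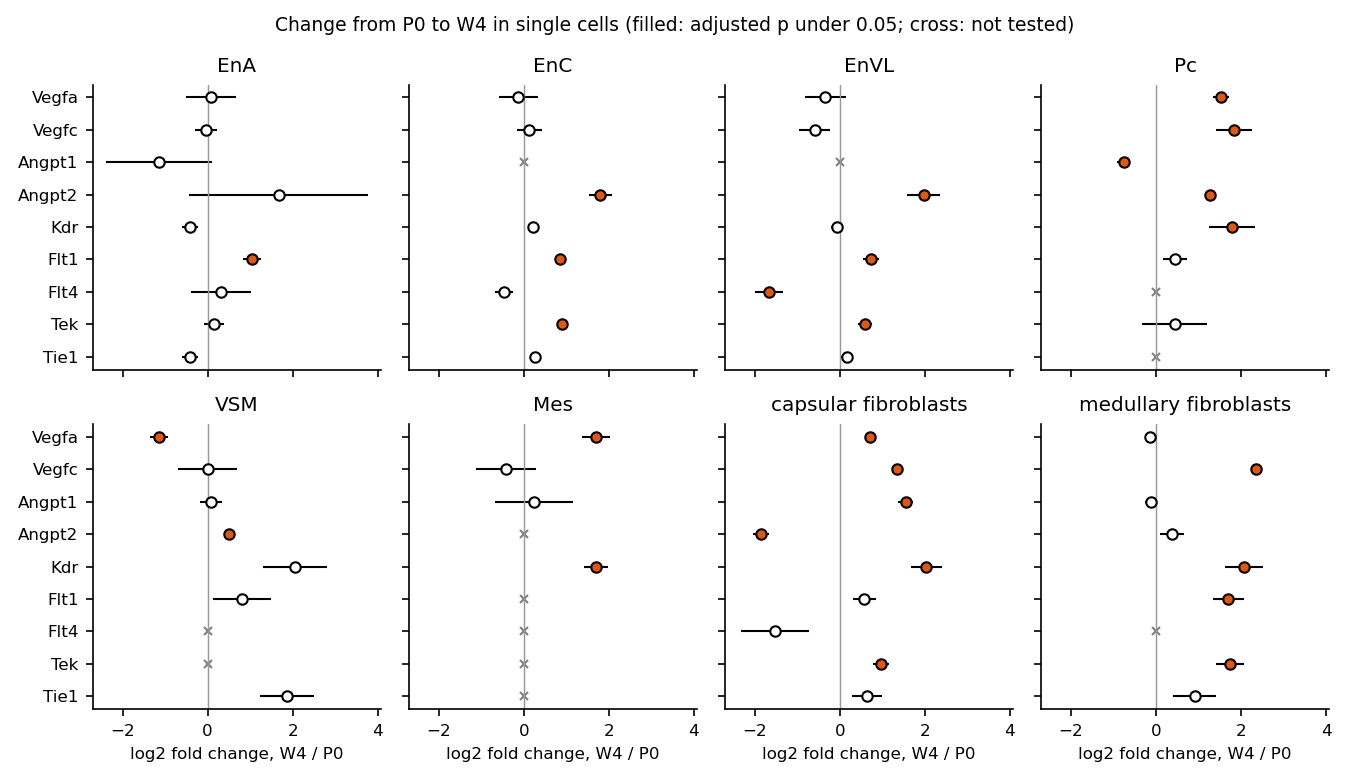
Log2 fold changes from P0 to W4 (x axis) of the 9 genes (y axis) in 8 units of the age series, with standard errors as bars and filled points where the adjusted p was under 0.05. Flt1 is to the right of 0 and filled in all 3 endothelial subtypes, Flt4 is to the left of 0 in EnVL, and Vegfa has opposite signs in Pc and VSM.

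The calls among the 9 genes are set beside the share of all genes tested that passed in the same fit. From P0 to W4, 4 of 9 passed in pooled endothelium, where 24.2% of all genes tested passed, 1 of 9 in EnA (9.08%), 3 of 8 in EnC (20.4%) and 4 of 8 in EnVL (14.6%). In Pc 5 of 7 passed (32.9%), in VSM 2 of 7 (22.6%) and in Mes 2 of 4 (7.92%). In capsular fibroblasts 6 of 9 passed (48.3%) and in medullary fibroblasts 4 of 8 (52.7%). With all ages of a fit in 1 test, 6 of 9 passed in pooled endothelium (60.8%), 4 of 9 in EnA (33.6%), 7 of 8 in EnC (56.3%) and 4 of 8 in EnVL (40.5%). In the other units 5 of 7 passed in Pc (68.0%), 5 of 7 in VSM (49%), 2 of 4 in Mes (33.9%), 9 of 9 in capsular (79.1%) and 6 of 8 in medullary fibroblasts (79.5%). This test covered all 5 ages except in EnA, which entered without E12.5 (10 cells), and in Mes, which entered without E16.5 (2 and 5 cells). The shares among so few genes are descriptions.

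Small rises of receptor genes were also called in cells that are not endothelial. Kdr moved from 1.11 and 1.42 to 5.49 and 4.88 CPM in Pc, from 2.30 and 0.956 to 5.47 and 7.12 CPM in capsular fibroblasts and from 0.468 and 0.724 to 3.65 and 1.80 CPM in medullary fibroblasts, where Flt1 also moved from 2.998 and 1.78 to 10.4 and 5.02 CPM. The calls of Kdr in Pc and of Flt1 in medullary fibroblasts (adjusted p = 0.56) were lost after thinning. Over the same libraries the 5 endothelial markers summed to 102.7 and 108.4 CPM at P0 and 121 and 133 CPM at W4 in Pc, to 23.7 and 22.4 and then 18.4 and 25.3 CPM in capsular fibroblasts, and to 69.4 and 69.2 and then 45.1 and 43.3 CPM in medullary fibroblasts. Of these 5 markers, 2 rose and 0 fell in Pc, 1 rose and 1 fell in capsular fibroblasts, and 2 rose and 2 fell in medullary fibroblasts. In Pc the sum was mostly Emcn, with a mean of 79.1 CPM over libraries, while Pecam1, Cdh5 and Cldn5 had means of 6.40, 3.77 and 2.79 CPM. The part of endothelial RNA in these low values was not tested.

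Other genes of the pathway were counted from lists. The shares of all genes tested that passed were 24.2% in pooled endothelium, 20.4% in EnC, 32.9% in Pc and 48.3% in capsular fibroblasts, and the counts are to be read against them. The endothelial pool held 29 and 31 EnA, 159 and 177 EnC and 95 and 83 EnVL cells at P0. At W4 it held 79 and 71 EnA, 246 and 275 EnC and 100 and 97 EnVL cells. The part of this make-up in the changes of the pool was not tested. In pooled endothelium Ptprb, the phosphatase that restrains TIE2 (log2 fold change 1.10), and Nrp1, a co-receptor of VEGF-A (0.85), rose among the 3 co-receptor and phosphatase genes from P0 to W4, and 0 fell, with a median of 0.85. Of 6 genes of oxygen sensing, 3 rose, namely Epas1 (1.16), Hif1a (0.78) and Egln1 (0.73), and 0 fell, with a median of 0.72 over the 6. The median over all genes tested was -0.0041 in this fit and -0.02 in that of capsular fibroblasts. Epas1 also rose in EnC (1.09), Pc (1.05) and capsular fibroblasts (1.76). The hypoxia-induced genes showed no common direction: of 9 tested in pooled endothelium, Adm (0.97) and Ndrg1 (0.80) rose and Slc2a1, the glucose transporter, fell (-0.38), with a median of -0.10. In capsular fibroblasts 4 of 10 rose, led by Adm (1.79) and Ndrg1 (1.65), and 2 fell, with a median of 0.03, so that 6 of 10 passed where 48.3% of all genes did.

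Among the other ligands Pgf, which binds VEGFR1, rose in pooled endothelium (1.55) and fell in capsular (-0.58) and medullary fibroblasts (-1.30), and Vegfb fell in pooled endothelium (-0.93). Of 11 genes that are targets of or act beside the receptors, 2 rose and 5 fell in pooled endothelium, with a median of -0.21. Esm1, a tip-cell gene, rose (1.52), and the falls were led by Apln, the apelin ligand (-2.35), and by Dusp5 (-2.28), Egr3 (-2.05) and Nr4a1 (-2.04), which are early response genes. The same 3 early response genes fell in Pc (-3.56, -4.22 and -3.07), VSM, and capsular and medullary fibroblasts.

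**Figure D4:**
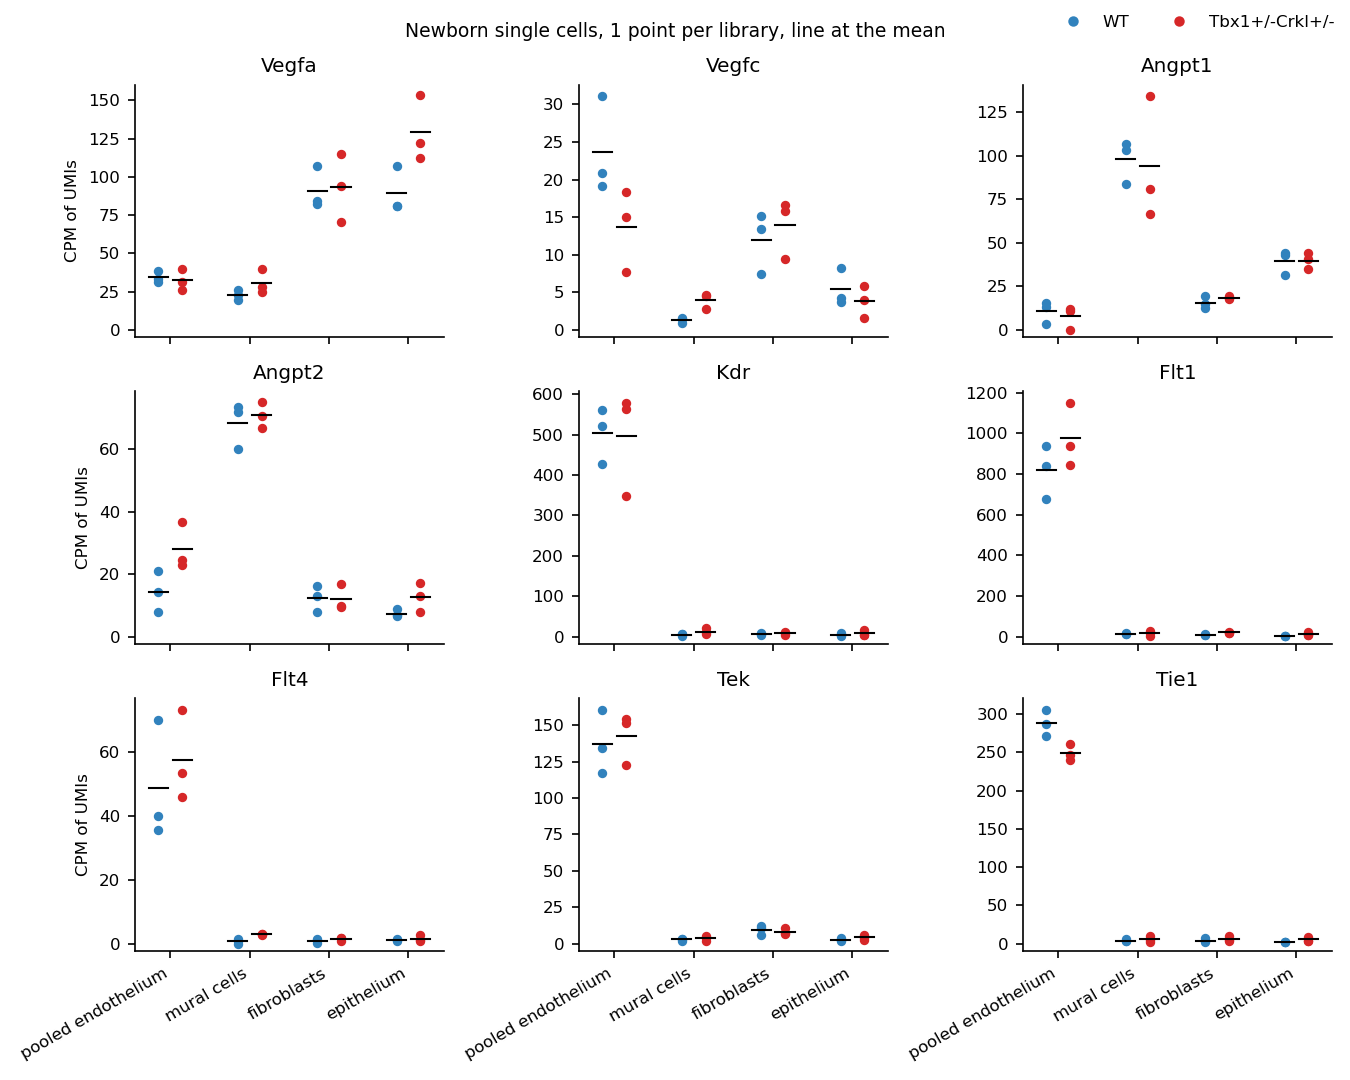
Levels of the 9 genes (y axis, CPM of UMIs, linear) in 4 pooled cell classes (x axis) of the newborn data, with 1 point per library in blue for WT and red for Tbx1+/-Crkl+/- and a line at each mean. The points of the 2 genotypes intermix for most genes, and Vegfa in epithelium lies at 112.1 to 154 CPM in the Tbx1+/-Crkl+/- libraries and at 80.8 to 107.1 CPM in WT.

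In the newborn data no member of the pathway passed the test between Tbx1+/-Crkl+/- and WT mice. The counts were 0 of 8 in pooled endothelium, where 0.0126% of all genes tested passed, 0 of 5 in mural cells (0.112%), and 0 of 8 in fibroblasts and 0 of 8 in epithelium, where 0% of genes passed (edgeR quasi-likelihood test, and 0 in each class with DESeq2). At an unadjusted p under 0.05 there was 1 gene in endothelium, 1 in mural cells, 1 in fibroblasts and 4 in epithelium. The share of all genes at that unadjusted threshold is not given, so these counts have no background to be read against. The Tbx1+/-Crkl+/- libraries were shallower, with medians of 2391 to 2551 UMIs per cell against 2577 to 4686 in WT.

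Levels are given by library for the main receptor and ligands, in the order of the replicates. Kdr in endothelium was 578, 563 and 348 CPM in Tbx1+/-Crkl+/- and 561, 522 and 428 CPM in WT (log2 difference -0.02, SE 0.25). Vegfa in fibroblasts was 93.7, 70.6 and 114.9 against 107.03, 83.9 and 82.1 CPM (-0.01, SE 0.21), and Angpt1 in mural cells 134.3, 66.4 and 81 against 103.3, 106.9 and 84.1 CPM (-0.13, SE 0.23). The epithelium, which the age series lacks, held Vegfa at 121.95, 112.1 and 154 CPM in Tbx1+/-Crkl+/- and at 107.1, 80.8 and 81.1 CPM in WT (0.51, SE 0.20, adjusted p = 0.689). The paper reports that perinatal cortical TEC were enriched in the mutant mice, and the part of epithelial make-up in this Vegfa level was not tested.

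Angpt2 in endothelium was 36.6, 24.6 and 22.9 against 7.79, 21.0 and 14.3 CPM (0.87, SE 0.39, adjusted p = 0.999). Flt1 in fibroblasts was 19.9, 20.6 and 23.2 against 13.47, 10.1 and 8.22 CPM (1.01, SE 0.25, adjusted p = 0.248), while the endothelial markers summed there to 80.5, 204 and 142 against 136.97, 91.3 and 111.8 CPM. By the mean over libraries, CapFb3 led Vegfa with 176 to 328 CPM in 4 libraries of 8 to 24 cells, a range that overlapped those of CapFb2b (106.9 to 242 CPM), CapFb4 (102.7 to 258 CPM) and the epithelial subtypes sTEC (75.3 to 420 CPM) and PAmTEC (25.5 to 358 CPM), EnA led Vegfc with 104 to 178.7 CPM, VSM led Angpt1 with 107.5 to 170 CPM, and CapFb4 held 41.1 to 109 CPM of Tek.

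**Figure D5:**
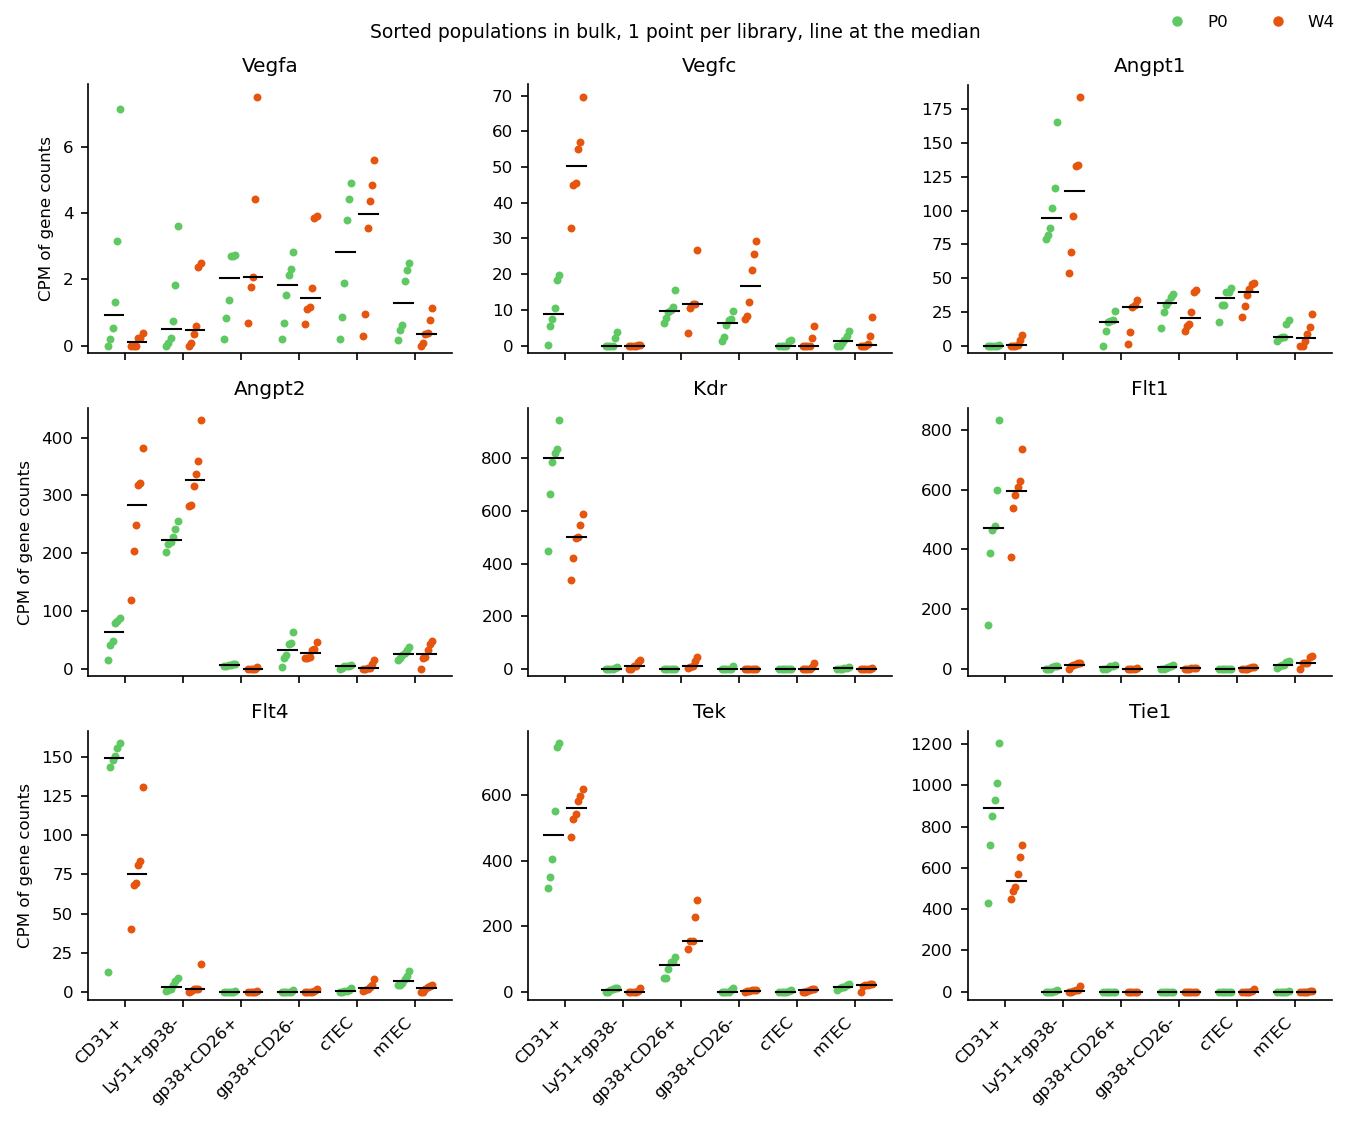
Levels of the 9 genes (y axes, CPM of gene counts, linear) in 6 sorted populations (x axis) at P0 and W4, with 1 point per library and a line at the median. Kdr, Flt1, Flt4 and Tie1 are high in CD31+ cells only, Tek is also at 130 to 281 CPM in gp38+CD26+ cells at W4, and Angpt2 at W4 is above P0 in all libraries of CD31+ and of Ly51+gp38- cells.

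In sorted populations the 5 receptor genes were highest in CD31+ cells at both ages. Fewer cells of a type and less RNA per cell cannot be told apart in bulk samples. The endothelial markers summed to 5685 to 7929 CPM in CD31+ libraries at P0 and to 6016 to 7512 CPM at W4. The libraries carried 1 of 2 label prefixes, TXCK or DFCK, and many calls were lost within 1 prefix, where fewer libraries were fitted. CD31+ cells held Kdr at 447 to 946 CPM (median 803) at P0 and at 337 to 588 CPM (median 499) at W4. Every library of the other 3 nonepithelial populations held at most 43.8 CPM. Compared with the mean of those 3 populations, 6 of 9 genes passed at P0, where 27.5% of all genes did, and 9 of 9 at W4 (25.1%).

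All 5 receptor genes were higher in CD31+ cells at both ages (adjusted p from 1.53e-11 to 7.93e-09 at P0 and from 3.69e-10 to 1.26e-07 at W4). Angpt1 was lower in CD31+ cells, with 0 counts in 5 of 6 libraries at P0 (adjusted p = 1.94e-08). Vegfc was higher there at W4 (33.02 to 69.7 CPM against at most 29.4 CPM, log2 difference 4.31, SE 1.02, adjusted p = 0.000639, and 0.0526 in DFCK alone). At P0 it was 0.0821 to 19.7 CPM in CD31+ cells and up to 15.6 CPM in gp38+CD26+ cells (adjusted p = 0.424), and the difference between ages in this contrast was not tested.

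Ly51+gp38- cells, in which the pericyte markers summed to 30944 to 41609 CPM at P0 and 84888 to 108683 CPM at W4, were compared with the 2 gp38+ populations, and 4 of 9 genes passed at P0 (13.2% of all genes) and 7 of 9 at W4 (21.7%). Angpt2 was higher in them, at 202 to 256 CPM at P0 (log2 difference 3.86, SE 0.71, adjusted p = 4.04e-05) and at 281 to 431 CPM at W4 (6.35, SE 0.83, adjusted p = 5.54e-09). Angpt1 was higher at both ages, at 78.7 to 166 CPM at P0 (2.19, SE 0.73, adjusted p = 0.0323) and 53.9 to 184.2 CPM at W4 (2.17, SE 0.75, adjusted p = 0.0267). Within the TXCK or DFCK libraries alone Angpt1 passed at neither age (adjusted p = 0.328 and 0.107 at P0, 0.0666 and 0.346 at W4). Vegfc was lower at W4, with at most 0.176 CPM in any Ly51+gp38- library (adjusted p = 0.0611 in TXCK alone). At W4 Flt1 (3.61), Flt4 (4.17) and Tie1 passed as higher and Tek as lower (-3.62), with Tek at 0 to 10.4 CPM in Ly51+gp38- cells. Flt1 (adjusted p = 0.128) and Tie1 (0.172) were lost in DFCK alone and Tek (0.0636) in TXCK alone, and at P0 Tie1 was lost in both (0.0964 in TXCK and 0.219 in DFCK). The endothelial markers summed at W4 to 18.8 to 195.8 CPM in Ly51+gp38- cells, to 0 to 14.4 CPM in gp38+CD26+ cells and to 11.4 to 49.4 CPM in gp38+CD26- cells. The 2 Ly51+gp38- libraries with the highest sums, replicates 4 and 6, also held the most Flt1 (20.1 and 18.2 CPM) and Tie1 (10.2 and 26.1 CPM), and the part of endothelial RNA was not tested. At P0 Flt4 and Tie1 passed at 0.542 to 8.73 CPM and 0 to 6.35 CPM, where the endothelial markers summed to 61.4 to 164 CPM.

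Tek was higher in gp38+CD26+ cells, the capsular population, than in gp38+CD26- cells. In gp38+CD26+ cells it stood at 42.9, 70.9, 41.1, 106.6, 91.4 and 91.8 CPM at P0 and at 155.1, 130, 229, 281 and 155.9 CPM at W4. In gp38+CD26- cells it stood at 0 in 4 libraries and at 6.20 and 12.4 CPM in the others at P0, and at 0 to 4.88 CPM at W4. The endothelial markers summed to at most 17.7 CPM in any gp38+CD26+ library, and Tie1 was at 0 in all of them.

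Between these populations 1 of 9 genes passed at P0, Tek (4.66, SE 1.13, adjusted p = 0.00795), where 4.20% of all genes did. At W4 3 of 9 passed (6.03%), namely Tek (6.00, SE 1.21, adjusted p = 0.000443), Kdr and, in the other direction, Angpt2 (-5.80, SE 1.15, adjusted p = 0.000326). Within DFCK libraries alone Tek passed at neither age (0.291 and 0.244), Angpt2 did not pass at W4 (0.227), and Kdr passed within neither prefix (0.0624 and 0.303). The rise of Tek with age in gp38+CD26+ cells had no overlap between ages. It did not pass in the fit of all groups (1.53, SE 1.01, adjusted p = 0.417), and it passed when this population was fitted alone (1.46, adjusted p = 0.00595).

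Kdr appeared in gp38+CD26+ cells only at W4. It was at 0 in all 6 libraries at P0, which allows up to 0.0450 CPM over the group, and at 0.820, 30.3, 8.05, 10.99 and 43.8 CPM at W4 (adjusted p = 0.00119). The mesothelial markers Upk3b, Msln and Lrrn4 summed to a median of 53.7 CPM (0 to 367) at P0 and of 4010 CPM (463 to 5311) at W4 in the same libraries, and their part in the Kdr level was not tested. The call was lost in the libraries labelled DFCK alone (adjusted p = 0.227). In gp38+CD26- cells Kdr was at 0 in 4 of 6 libraries at each age, and the age changes of the 2 populations differed (1 of 9 genes passed this test, Kdr, adjusted p = 0.00197, where 3.39% of all genes did). This difference passed within neither prefix (adjusted p = 1 in TXCK and 0.22 in DFCK).

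From P0 to W4, 2 of 9 genes passed in CD31+ cells (10.5% of all genes), 0 of 9 in Ly51+gp38- cells (11.6%, with 2 at an unadjusted p under 0.05), 2 of 9 in gp38+CD26+ cells (9.57%) and 0 of 9 in gp38+CD26- cells (13.46%, with 1). In cTEC 3 of 9 passed (10.2%) and in mTEC 0 of 9 (3.91%, with 0). These percentages are shares at the adjusted threshold, and none is given for the unadjusted counts. Angpt2 in CD31+ cells stood at 14.3, 48.0, 79.4, 83.3, 88.3 and 41.3 CPM at P0 and at 203, 249, 120, 322, 382 and 318 CPM at W4. The groups did not overlap, yet the difference missed the threshold in the fit of all groups (2.31, SE 0.87, adjusted p = 0.0734) and passed when CD31+ cells were fitted alone (2.26, adjusted p = 0.00494). In the same libraries the venous markers summed to 394 to 800 CPM at P0 and 2005 to 2747 CPM at W4. The pericyte markers summed there to 82.5 to 193 CPM at P0 and 572 to 1784 CPM at W4. The part of either in the Angpt2 level was not tested. Vegfc in CD31+ cells did not overlap between the ages either, with 0.0821 to 19.7 CPM at P0 and 33.02 to 69.7 CPM at W4, and did not pass (2.47, SE 1.37, adjusted p = 0.296). For Angpt2 in Ly51+gp38- cells all 6 libraries at W4 also lay above those at P0 (0.74, SE 0.83, adjusted p = 0.772, and 0.000861 when fitted alone). In gp38+CD26+ cells Angpt2 fell from 4.64 to 8.04 CPM to 0 in 4 of 5 libraries and 2.35 CPM in the other (adjusted p = 0.0231), and this call was lost without W4 replicate 1, 4, 5 or 6, when the population was fitted alone (0.153), and in DFCK alone (0.557). The pericyte markers summed there to 237 to 619 CPM at P0 and 135.8 to 249 CPM at W4, with 0 of the 5 past the test, and their part in the Angpt2 level was not tested.

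The 5 receptor genes gave no call with age in CD31+ cells. In simulated data a W4 minus P0 test of CD31+ bulk cells recovered 22% of 2-fold and 38% of 4-fold changes. A missing call therefore does not show a lack of change. Flt4 was at 12.6 CPM in P0 replicate 1 and at 143.5 to 159 CPM in the other 5 P0 libraries, and at 40.0 to 131.1 CPM at W4 (-0.56, SE 1.08, adjusted p = 1), while the lymphatic markers had a median of 34.5 CPM at P0 and 2.83 CPM at W4. Replicate 1 was also the lowest at P0 for Kdr, Flt1, Tie1 and Angpt2, and it had 11520 genes detected against 13371 to 14377 in the others. The 2 genes that passed in CD31+ cells were at very low levels, Vegfa at 0 to 7.15 CPM at P0 and 0 to 0.391 CPM at W4 (-3.64, SE 1.12, adjusted p = 0.0246) and Angpt1 at 0 in 5 libraries and 0.246 CPM in 1 at P0, and at 0 in 3 libraries and 0.156, 4.15 and 7.64 CPM in the others at W4 (adjusted p = 0.00221), so that the groups overlapped. Over the same libraries the pericyte markers summed to 82.5 to 193 CPM at P0 and 572 to 1784 CPM at W4, 2 of the 5 rose and 0 fell, and their part in the Angpt1 level was not tested. The Vegfa call was lost without P0 replicate 1 (-2.67, adjusted p = 0.112), an alternative added after its values were seen. It was also lost in the DFCK libraries alone (-1.44, adjusted p = 1). Angpt1 turned the other way in the TXCK libraries alone (-0.49, adjusted p = 1) and passed in DFCK alone (adjusted p = 0.00647), where both libraries above 1 CPM lie.

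Vegfa differed between the assays. No bulk library of any population held more than 11.8 CPM of it, and gp38+CD26+ cells held 0.184 to 2.74 CPM at P0 and 0.683 to 7.53 CPM at W4, whereas capsular fibroblasts held 31.5 to 86.4 CPM in single cells, which count the 3′ end of transcripts. Whether the bulk counting covered the whole of Vegfa was not tested, so its bulk levels, and its call in CD31+ cells, may rest on part of the transcripts.

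In epithelial cells in bulk, Angpt1 in cTEC and Tek in mTEClo had the highest mean levels among the 9 genes. Angpt1 had means of 33.2 CPM (SD 9.41, n = 6) at P0 and 37.01 CPM (SD 9.92, n = 6) at W4 in cTEC, and Tek was at 6.79 to 84.5 CPM in mTEClo. Between cTEC and mTEC 5 of 9 genes passed at P0 (32.1% of all genes) and 2 of 9 at W4 (32.2%), and between mTEChi and mTEClo 2 of 9 (19%). Angpt2 was higher in mTEC at both ages (15.8 to 38.1 CPM against 0 to 6.46 CPM at P0, log2 difference -2.97, SE 0.91, adjusted p = 0.00834, and -2.94, SE 0.90, adjusted p = 0.00932 at W4), a call that each prefix alone lost at both ages (0.0513 to 0.144), and so was Flt1, which was at 0 in all 6 cTEC libraries at P0 and at 3.19 to 27.1 CPM in mTEC, although its call at W4 was lost within each prefix (0.0752 in TXCK and 0.208 in DFCK). Pericyte markers summed to 2172 to 3377 CPM in mTEC and to 34.5 to 106 CPM in cTEC at P0. Of these, Rgs5 alone made up 2138 to 3347 CPM in mTEC and 33.99 to 104 CPM in cTEC, Kcnj8 was at most 2.5 CPM, and their part was not tested. Angpt1 was at 17.5 to 42.7 CPM in cTEC at P0 and at 21.2 to 46.3 CPM at W4, and in mTEClo it exceeded mTEChi in the median (24.6 and 2.93 CPM, -2.80, SE 0.94, adjusted p = 0.0276), with 4 mTEClo libraries above and 2 below all 6 of mTEChi, the 2 low ones being labelled TXCK. This call was lost within either prefix alone (0.708 and 0.0635).

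The 3 calls with age in cTEC were Kdr, Flt1 and Tie1, each at 0 in all 6 libraries at P0. At W4 Kdr reached 22.1 CPM and Tie1 13.8 CPM in replicate 6, and 3 libraries of Kdr were at 0. The endothelial markers summed to 0 to 6.03 CPM at P0 and to 11.5 to 80.9 CPM at W4 in cTEC, and the mesothelial markers to at most 3.36 CPM and then up to 2350 CPM. Their part in these 3 calls was not tested. Tie1 was lost with no filter on low counts (adjusted p = 0.0546) and with the label prefix as a term (0.0503), and all 3 were lost within each label prefix alone (adjusted p = 0.0712 to 0.104 in TXCK and 0.424 to 0.886 in DFCK). For Kdr the age change differed between cTEC and mTEC (adjusted p = 0.0346), the only 1 of 9 genes to pass that test, where 2.87% of all genes did, and this passed within neither prefix (0.153 in TXCK and 0.993 in DFCK).

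Genes with the most similar pattern over the 19 subtypes of the age series were ranked by Pearson's r of log2(mean CPM + 1) among 9473 genes, as a description over points that share libraries and clusters. For Vegfa these were Klhl13 (r = 0.942), Col5a2 (0.937) and Scara3 (0.9204). For Angpt1 they were Mmp11 (0.941), Epb41l1 (0.936) and Hoxb2 (0.935), and for Angpt2 Agpat5 (0.852), Ehd3 (0.833) and Fam103a1 (0.830), the weakest match of the 6 genes ranked. Kdr was followed by Unc45b (0.974), Vamp5 (0.972) and F11r (0.966), Flt4 by Klhl4 (0.986), Nrros (0.982) and Gpr4 (0.978), and Tek by Rps6ka3 (0.957), Rin3 (0.953) and Car8 (0.951).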

How the data were processed

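Single-cell UMI counts and bulk read counts were analysed. Single-cell reads had been counted by the authors with Cell Ranger. They kept singlets in which over 1000 genes were detected and mitochondrial UMIs made up less than 5%, gave every cell a subtype label, and deposited whole UMI counts that are not normalized. The newborn libraries held cells down to 876 to 901 genes. The submitters' processing notes name Cell Ranger 3.1.0, STAR 2.5.3a, HTSeq, mm10 and GRCh38, without saying which files used GRCh38. For bulk RNA the deposited values are raw read counts, 1 row for each Ensembl ID. Entries of no gene were left out, and held between 7.81 and 16.6% of the reads of a library in the fit. In the gp38+CD26+ library at W4 that was left out they held 29.4%. Symbols were found for 37607 of 39179 Ensembl IDs.

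UMIs were summed per subtype or pooled class and library with at least 20 cells, and libraries were the replicates. By this minimum the tests over the 5 ages left out E12.5 in EnA and E16.5 in Mes. edgeR 4.0.16 in R 4.3.3 gave quasi-likelihood tests after filterByExpr and TMM scaling. Benjamini-Hochberg adjustment covered all genes of a fit, at a threshold of 0.05. The single libraries at E13.5 and at E12.5 were taken to vary like the replicated ages. Bulk libraries were fitted in 1 model of 14 groups and 83 libraries. The scripts were tested on simulated data. Alternatives were DESeq2 1.42.0, other scaling and filters, thinned cells, left-out libraries, the replicate number as a block, and the prefix (TXCK or DFCK) of each bulk library's title, for which the sources used here give no meaning. Intervals and limits cover counting error only, and the intervals pool cells of all libraries without regard to library or age. Promoters came from a RefSeq table that held 7 of the 9 genes (not Angpt1 and Angpt2), and gene positions from GENCODE. The members, gene lists and markers were chosen with earlier results of these data known. Named genes are the 9 members, up to 4 genes per list that passed, and 3 pattern neighbours for 6 members.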

Additional observations from a re-analysis of the deposited data

Results flagged for a closer look

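Among 52 pairs of a gene and a bulk group, each with a median of at least 5 CPM, 2 had a library far from the others. Chance gives about 1 in 20, so 2 of 52 is not above that rate. Flt4 in CD31+ cells at P0 was 12.6 CPM in replicate 1, while the other 5 libraries held 143.5 to 158.8 CPM. Tek in mTEC at W4 was 0 CPM in replicate 3 and 16.9 to 23.6 CPM in the other 5. That library had 5785352 gene counts, the fewest in the fit, and 12758 genes detected against 16323 to 18710 in the other 5. Kdr, Flt1, Flt4 and Tie1 were also at 0 in it.

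The change of Kdr with age differed between populations in a test of the difference itself (edgeR quasi-likelihood test). It was 15.18 log2 units higher in gp38+CD26+ than in gp38+CD26- cells (adjusted p = 0.00197) and 10.28 log2 units higher in cTEC than in mTEC (adjusted p = 0.0346). Neither passed in the libraries of 1 label prefix alone (adjusted p = 1 and 0.153 in TXCK, 0.22 and 0.993 in DFCK). Kdr was at 0 in all P0 libraries of gp38+CD26+ cells and of cTEC, so both sizes depend on the prior count of the fit and are no measure of the fold.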

How the results depend on the processing

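Between P0 and W4, 31 gene and unit pairs passed among the 9 genes in single cells, 20 after thinning to 2000 UMIs per cell, 23 with DESeq2 and 24 to 34 with 1 library left out. Over the 5 ages 48 passed (39 to 49 with 1 library left out). In bulk 7 passed with age (6 to 7 with 1 gp38+CD26+ W4 library or CD31+ P0 replicate 1 left out, 1 in the libraries labelled DFCK alone), 39 between populations (39 to 40, and 21 in DFCK alone), and 2 for the difference of age changes (2 to 3, with 1 in TXCK alone and 0 in DFCK alone). The rise of Angpt1 with age in CD31+ cells turned to -0.49 in TXCK alone. A fit within a prefix has fewer libraries, and the cause of these losses was not tested.

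The main fits did not use the replicate numbers to pair libraries. In pooled endothelium and Pc of the age series, same-numbered libraries correlated in their deviations by -0.00825 to 0.141. In pooled endothelium and mural cells of the newborn data they correlated by -0.325 to 0.124, and differently numbered ones by -0.347 to 0.407. With 2 libraries per age the deviations of an age mirror each other, so these values cannot decide whether libraries were paired. With the replicate number as a block 29 pairs passed between P0 and W4, 42 over the 5 ages and 0 between genotypes. Bulk libraries were numbered in accession order, which pairs nothing, and no block was fitted there.

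The genotype comparison gave 0 calls among the 9 genes under every alternative that was run. In all, 475 of the values of single genes between P0 and W4 kept their direction and their side of the threshold over the alternatives, 35 lost the call and 8 gained it. The mean level of each of the 9 genes in its leading subtype moved by less than 1 SD with a minimum of 20 cells, while the share of cells with a UMI fell for all 9 after thinning, from 55.1 to 14.5% for Vegfa in CapFb3 and from 32.4 to 6.73% for Flt4 in EnC, as fewer UMIs per cell must. Depth limits the low values: a gene at 0 in a group of bulk libraries may be present below the limit that 3 counts allow.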
